A study of Mus musculus with 7 samples.

Results

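Schwann cells are the glia of peripheral nerves, and 8 genes of their myelin programme were followed here among 56854 gene identifiers that all count files share. The 8 were taken as a fixed list of symbols: Mbp, Pmp22, Prx, Mag and Ncmap, which encode proteins of the myelin sheath, Sox10 and Egr2, which encode transcription factors of the lineage, and Ngfr, a receptor gene of immature and repair Schwann cells. All 8 had counts in every library and all 8 passed the filter on low counts. The libraries came from whole shoulder joints of 7 mice, 1 library per mouse, dissected 2 weeks after the supraspinatus tendon of the left shoulder had been repaired. Wild-type mice (n = 3) were compared with mice lacking Tenascin C, a matrix glycoprotein (Tnc-/-, n = 4). Every animal had surgery, so no unoperated joint enters any comparison, and neither strain, sex nor age is given in the sources used here. Libraries are named by genotype and number.

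A myelinating Schwann cell wraps its membrane around 1 axon in layers that are then compacted, with SOX10 required throughout the lineage and EGR2 switching on the myelin genes. After nerve injury the cell can leave this state, lower its myelin genes and become a repair cell that expresses NGFR and growth-associated genes and supports regrowing axons. In a whole joint this signal comes from small nerve branches within muscle, tendon and capsule, alongside other cells that express some of the same genes. Pmp22 is also expressed by fibroblasts, Mbp yields transcripts outside myelin from an upstream start, and Egr2 is induced in activated immune cells. In such bulk samples fewer cells of a type and less RNA per cell cannot be told apart.

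The stretches before the gene starts of Prx, Mag and Ncmap are shown because SOX10 and EGR2, members of the same set, are known regulators of myelin genes. Of the 8 genes, 6 were searched in the table of RefSeq stretches used here (build GRCm38.p6), and Mbp and Sox10 were left out. The most upstream start listed was used, of 1 for Prx, 3 for Mag and 2 for Ncmap. Each stretch of 250 bases was searched on both strands for the SOX letters ACAAAG and ACAATG and for the EGR letters GNGTGGGNG. Capitals mark the matches. The 3 stretches were Prx at chr7:27499074-27499323 (+ strand), Mag at chr7:30914923-30915172 (- strand) and Ncmap at chr4:135398228-135398477 (- strand).
Prx: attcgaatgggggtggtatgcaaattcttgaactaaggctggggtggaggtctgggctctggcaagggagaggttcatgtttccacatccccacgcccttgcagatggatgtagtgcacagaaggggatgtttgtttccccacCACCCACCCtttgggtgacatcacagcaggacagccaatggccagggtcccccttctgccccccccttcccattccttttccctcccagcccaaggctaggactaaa
Mag: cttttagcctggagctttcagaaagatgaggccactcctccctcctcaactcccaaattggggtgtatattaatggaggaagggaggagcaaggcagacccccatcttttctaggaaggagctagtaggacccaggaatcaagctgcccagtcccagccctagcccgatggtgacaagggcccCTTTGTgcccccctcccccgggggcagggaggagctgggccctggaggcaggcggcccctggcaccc
Ncmap: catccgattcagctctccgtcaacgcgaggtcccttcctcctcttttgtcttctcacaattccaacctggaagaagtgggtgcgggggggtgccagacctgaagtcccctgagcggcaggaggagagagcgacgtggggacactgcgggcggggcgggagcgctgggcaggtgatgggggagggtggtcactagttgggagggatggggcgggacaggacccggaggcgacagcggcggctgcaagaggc
Mag held 1 SOX match, read on the other strand, with its first base 67 bases before the start. Prx held 1 EGR match, also read on the other strand and beginning 107 bases before the start. Ncmap held neither, nor did Pmp22, Egr2 or Ngfr. Of all 32851 stretches of this length in the same table, 25.2% held a SOX match and 12.7% an EGR match. The 1 of 6 genes searched for each is thus a description and says nothing of binding.

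The libraries held 13464057 to 18503833 gene counts in wild type and 19250322 to 28191101 in Tnc-/-. Tnc had 4394 to 8137 counts in the wild-type libraries and 698 to 1051 in Tnc-/-, where its level fell (log2 fold change -3.08, SE 0.21; edgeR, adjusted p = 2.8e-04). The identifier sets of the files differed, with 126 identifiers only in the wild-type files and 87 only in the Tnc-/- files, so genotype and the run in which reads were counted cannot be told apart. Wild-type libraries 2 and 3 stood apart from the other 5: across 17791 genes the correlation of log2 levels was 0.979 to 0.984 among Tnc-/- libraries, 0.932 to 0.935 between these and wild-type library 1, and 0.778 to 0.834 between wild-type library 1 and libraries 2 and 3 (genes are not independent replicates). Receptor genes of smell and pheromone sensing, which a joint is not known to express, summed to 88.2 CPM (counts per 1000000 scaled gene counts) in wild-type library 1, 1393 and 978 CPM in libraries 2 and 3, and 36.5 to 43.9 CPM in Tnc-/-. Results are therefore also given without wild-type libraries 2 and 3. Wild-type library 1 is then assumed to vary like the Tnc-/- libraries.

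Of the 8 genes, Mbp rose and Ncmap fell in Tnc-/-, and the other 6 did not pass the test (edgeR's quasi-likelihood test with Benjamini-Hochberg adjustment over all 17791 genes tested, threshold 0.05). Those 2 of 8 compare with 29.0% of all genes tested, 10.3% called higher and 18.7% called lower, so the share among the 8 lies near that of the whole table. The median log2 fold change of the 8 was 0.023, against -9.0e-04 over all genes. Only in Mbp did the ranges of the genotypes not overlap, against 35.1% of all tested genes (17.7% with Tnc-/- above and 17.4% with Tnc-/- below). The same 2 of the 8 were those with an unadjusted p under 0.05. Without wild-type libraries 2 and 3 the count was 0 of 8, where 4.45% of genes were called, and with the summed receptor level as a covariate it was also 0 of 8, where 2.32% were. DESeq2 called 2 of 8 with Benjamini-Hochberg adjustment (35.1% of all genes) and 0 of 8 with Bonferroni adjustment (9.29%), which the series' design text names for the study's own comparison. Limma voom called 1 of 8 (5.47%), the fit with replicate number as a block 1 (10.9%) and scaling by library totals 3 (30.9%).

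**Figure D1:**
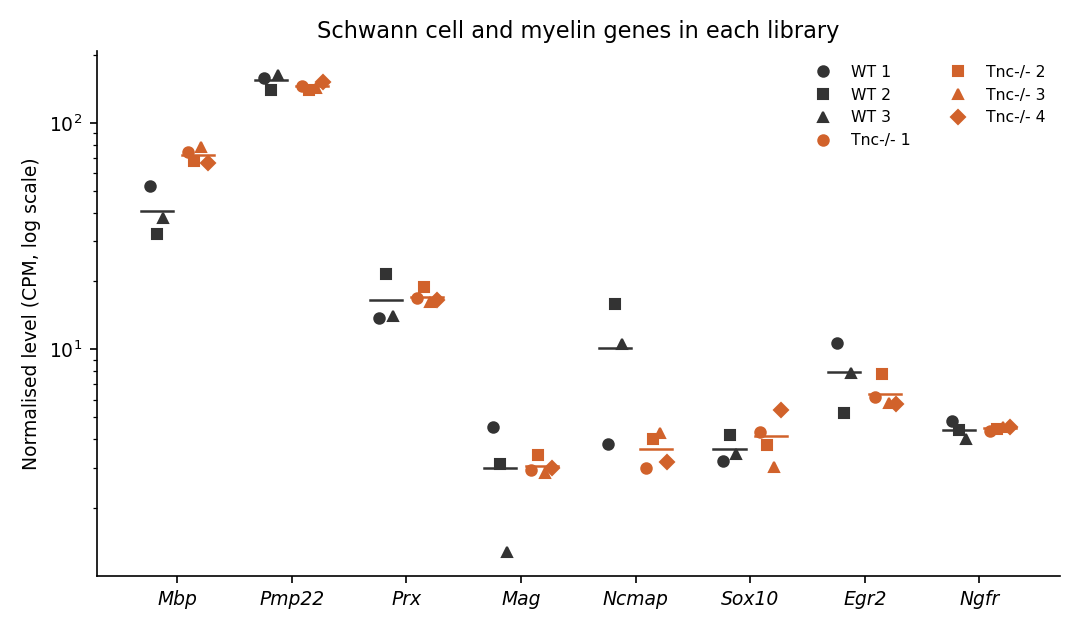
Normalised level in CPM (log axis) of the 8 genes, 1 point per library, with bars at the group means. In Mbp the 4 Tnc-/- libraries (66.6 to 78.5 CPM) sit above the 3 wild-type libraries (32.3 to 52.6 CPM), while in Ncmap wild-type library 1 (3.81 CPM) sits among the Tnc-/- libraries.

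By mean level, the order of the 8 genes had Pmp22 at the top and Mag at the bottom in both genotypes. Levels between genes are given per kb of exon, taken from GENCODE M21 exon lengths, so that long transcripts do not count for more. Pmp22 stood at 65.5 ± 5.15 CPM per kb in wild type (SD, n = 3) and 61.5 ± 1.96 in Tnc-/- (SD, n = 4). Mbp followed at 4.84 ± 1.24 and 8.50 ± 0.66 CPM per kb, and Prx at 2.95 ± 0.80 and 3.06 ± 0.22. Egr2 lay at 2.33 ± 0.79 in wild type, within the spread of Prx, and at 1.87 ± 0.28 in Tnc-/-, clear of it. Ngfr (1.28 ± 0.12 and 1.30 ± 0.025 CPM per kb) and Sox10 (1.19 ± 0.16 and 1.35 ± 0.33) did not differ from each other beyond their spread in either genotype. Mag had the lowest mean, at 0.73 ± 0.40, overlapping the spread of Sox10 in wild type, and at 0.75 ± 0.060 in Tnc-/-. Ncmap moved furthest in this order, from 4.53 ± 2.72 CPM per kb in wild type, level with Mbp, to 1.62 ± 0.28 in Tnc-/-, within the spread of Egr2. Its wild-type place rested on libraries 2 and 3, since library 1 (3.81 CPM) lay within the Tnc-/- range of 3.00 to 4.25 CPM.

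Myelin basic protein, encoded by Mbp, holds the inner faces of the compacted membrane together. Its counts were 980, 486 and 626 in wild type and 2019, 1223, 1403 and 1273 in Tnc-/- 1 to 4. Its levels were 52.6, 32.3 and 38.0 CPM in wild type and 74.7, 68.1, 78.5 and 66.6 CPM in Tnc-/-. Every Tnc-/- library was above every wild-type library, and wild-type library 1 was the nearest to them. The mean went from 41.0 ± 10.5 CPM (SD, n = 3) to 72.0 ± 5.60 CPM (SD, n = 4), a 1.76-fold rise. The log2 fold change was 0.81 (SE 0.18, 95% interval 0.41 to 1.21; edgeR, adjusted p = 0.0121).

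Comparisons within a library, which no scaling touches, separated the genotypes for Mbp against Pmp22 but not against Prx or Sox10. The ratio of Mbp to Pmp22 was 0.332, 0.23 and 0.233 in wild type and 0.514, 0.486, 0.549 and 0.441 in Tnc-/-, with no overlap. The ratio of Mbp to Prx overlapped, at 1.495 to 3.84 in wild type and 3.62 to 4.87 in Tnc-/-, as did that of Mbp to Sox10, at 7.71 to 16.3 and 12.4 to 26.0.

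The size of the Mbp difference depended on the wild-type libraries. It was 1.13 on the log2 scale without wild-type library 1 (edgeR, adjusted p = 2.54e-05) and 0.76 without library 3, where the call was lost (adjusted p = 0.0579). Without libraries 2 and 3 it was 0.45 (SE 0.17, adjusted p = 0.128), and with the receptor covariate 0.27 (SE 0.21, adjusted p = 0.534). Mbp spans 110 kb, and among the 2585 tested genes spanning over 100 kb 3.37% were called higher in Tnc-/- and 52.4% lower. Summed macrophage markers, all 6 of which were tested and none called, moved with Mbp within wild type, at 2874, 1526 and 1494 CPM in libraries 1 to 3 and 2267 to 2637 CPM in Tnc-/-, below wild-type library 1 in each. Summed skeletal muscle markers were also highest in wild-type library 1 of the 3, at 26870, 20763 and 20429 CPM, and as for Mbp every Tnc-/- library was above, at 28508 to 42412 CPM. Within wild type, fibroblast markers (32154, 20717 and 25825 CPM) and endothelial markers (644, 568 and 544 CPM) also summed highest in library 1. T cell markers summed lowest there (18.4, 38.6 and 33.8 CPM), as did the neuron, oligodendrocyte and melanocyte markers given below. The part of these cells in the Mbp difference was not tested.

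**Figure D2:**
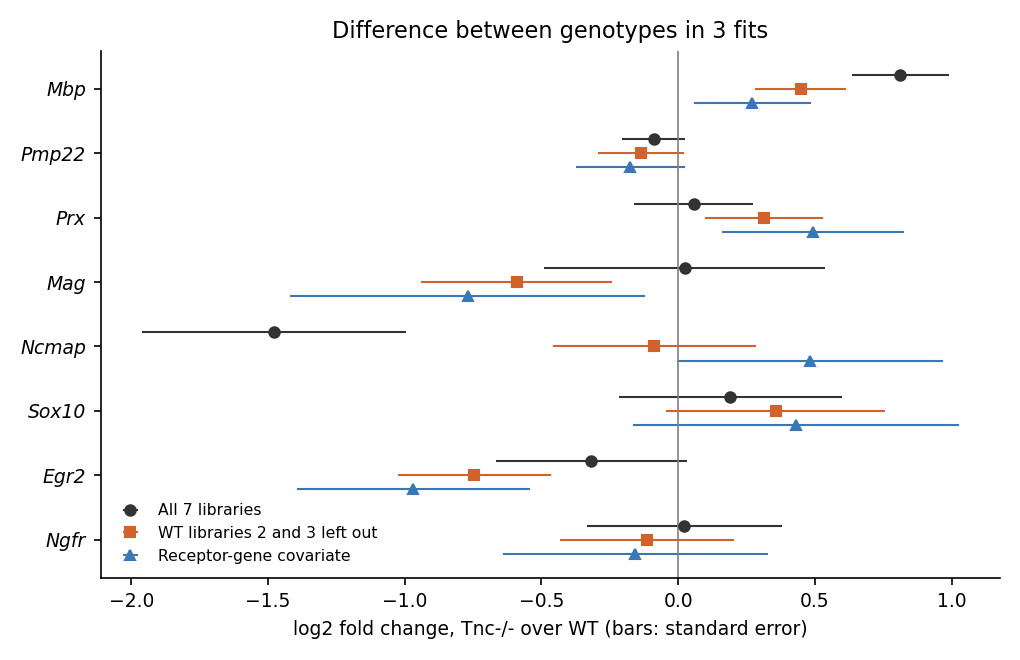
log2 fold change of Tnc-/- over wild type for each gene (points) with its standard error (bars) in 3 edgeR fits: all 7 libraries, wild-type libraries 2 and 3 left out, and the summed receptor level as a covariate. The fold change of Ncmap goes from -1.48 to -0.087 and 0.48, and that of Mbp from 0.81 to 0.45 and 0.27.

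Ncmap encodes a small membrane protein of non-compact myelin. Its counts were 71, 239 and 174 in wild type and 81, 72, 76 and 61 in Tnc-/- 1 to 4. The levels were 3.81, 15.9 and 10.6 CPM in wild type and 3.00, 4.01, 4.25 and 3.19 CPM in Tnc-/-. Wild-type libraries 2 and 3 were high, and wild-type library 1 lay within the range of Tnc-/-. The log2 fold change was -1.48 (SE 0.48, 95% interval -2.58 to -0.38; edgeR, adjusted p = 0.0487). Leaving out wild-type library 1 gave -1.78 with an adjusted p of 2.59e-04, and leaving out any other library ended the call, with adjusted p (edgeR) from 0.0981 to 0.185. The log2 fold change was -0.99 without wild-type library 2 and -1.57 to -1.41 in the other 5 of these fits. Without wild-type libraries 2 and 3 the log2 fold change was -0.087 (SE 0.37, adjusted p = 0.912), and with the receptor covariate its direction turned, to 0.48 (adjusted p = 0.645).

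Ncmap was also the gene of the 8 that moved most with the receptor genes. Its mean in wild-type libraries 2 and 3 was 13.2 CPM, or 1.77 log2 units above library 1 (0.1 CPM added to each), while the other 7 genes lay between -1.02 and 0.38. Per kb of gene span, Ncmap (28.7 kb) gave 0.133, 0.554 and 0.369 CPM for wild type and 0.105 to 0.149 CPM for Tnc-/-. The receptor genes, measured in the same way, stood at 0.00595, 0.0941 and 0.066 CPM per kb in wild type and 0.00246 to 0.00296 in Tnc-/-. The part of this shared rise in the Ncmap difference was not tested beyond the fits above.

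**Figure D3:**
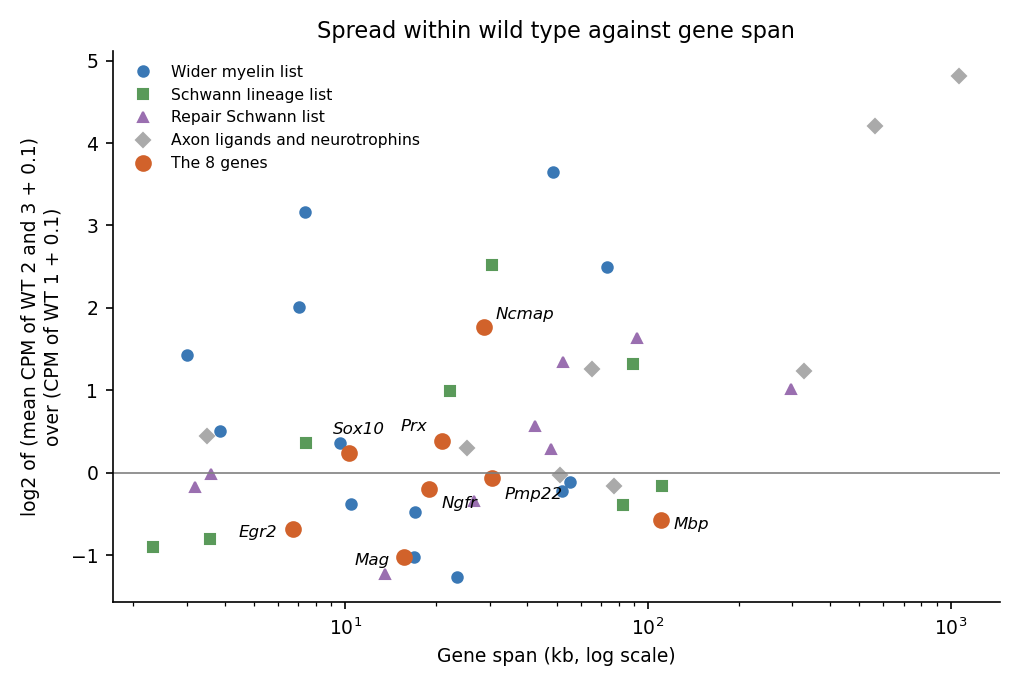
Spread within wild type for the tested Schwann cell, myelin and axon genes: log2 of the mean CPM of libraries 2 and 3 over that of library 1 (0.1 CPM added) against gene span in kb (log axis). Ncmap lies at 1.77 and Mbp at -0.58; Nrg1 and Ntrk3, the genes with the longest spans shown, lie highest.

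Pmp22 encodes a membrane protein of compact myelin whose dose matters for the sheath, and it was the steadiest of the abundant genes. It stood at 159, 140 and 163 CPM in wild type and 145, 140, 143 and 151 CPM in Tnc-/-, from 2114 to 3928 counts per library. The groups overlapped, and the log2 fold change was -0.090 (SE 0.12, 95% interval -0.35 to 0.17; edgeR, adjusted p = 0.591). Scaling by library totals gave -0.33 with an adjusted p of 0.0387.

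Periaxin, encoded by Prx, anchors the outer Schwann cell membrane. Its levels were 13.7, 21.6 and 14.0 CPM in wild type and 16.9, 18.8, 16.1 and 16.5 CPM in Tnc-/-, so that wild-type library 2 was the highest of all 7 and the Tnc-/- libraries lay between the others. The log2 fold change was 0.056 (95% interval -0.43 to 0.55; edgeR, adjusted p = 0.868). A short exon stretch of Prx, 5.38% of its exon bases, overlaps an antisense gene, and the sources used here do not say whether counting used strand.

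Mag encodes the myelin-associated glycoprotein that faces the axon, and its counts were low, from 21 to 85 per library. Wild type gave 4.56, 3.12 and 1.28 CPM and Tnc-/- 2.92, 3.40, 2.86 and 2.98 CPM. The wild-type libraries spread 3.58-fold around Tnc-/- libraries that spread 1.19-fold. The log2 fold change was 0.023 (SE 0.51, 95% interval -1.14 to 1.19; edgeR, adjusted p = 0.979), an interval too wide to separate a 2-fold difference either way from none. Without wild-type libraries 2 and 3 it was -0.59 (adjusted p = 0.32).

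The transcription factor genes did not pass the test. Sox10 stood at 3.22, 4.19 and 3.46 CPM in wild type and 4.33, 3.79, 3.02 and 5.39 CPM in Tnc-/- (log2 fold change 0.19, 95% interval -0.74 to 1.12; edgeR, adjusted p = 0.755). Egr2 stood at 10.6, 5.25 and 7.90 CPM in wild type and 6.14, 7.74, 5.82 and 5.75 CPM in Tnc-/-, with wild-type library 1 the highest of all. Its log2 fold change was -0.32 (95% interval -1.11 to 0.48; edgeR, adjusted p = 0.527), and it was 0.043 without wild-type library 1 and -0.75 without libraries 2 and 3 (adjusted p = 0.132). The ratio of Egr2 to Sox10 ran from 1.25 to 3.30 in wild type and from 1.07 to 2.04 in Tnc-/-.

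Ngfr encodes the p75 neurotrophin receptor and was the most even of the 8 genes among the Tnc-/- libraries. It had 90, 66 and 66 counts in wild-type libraries and 118, 80, 81 and 87 in Tnc-/-, or 4.83, 4.39 and 4.01 CPM against 4.36, 4.46, 4.53 and 4.55 CPM. The Tnc-/- libraries all lay within the range of wild type. Their coefficient of variation was 1.91%, below the 10.5% that counting error alone gives at this depth. The log2 fold change was 0.022 (95% interval -0.79 to 0.83; edgeR, adjusted p = 0.971), so a change within that interval cannot be told from none.

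The spread between libraries was larger in wild type than in Tnc-/- for all of these genes but Sox10. The coefficient of variation of Mbp was 25.5% in wild type and 7.79% in Tnc-/-, that of Mag 55.2 and 8.06%, and that of Ncmap 60.0 and 17.0%. Sox10 went the other way, with 13.9 and 24.1%. Summed over the 8 genes, the level was 252, 227 and 243 CPM in wild type and 250 to 258 CPM in Tnc-/-.

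Myelin genes were next set against repair genes within each library. Over 18 tested myelin genes (5 of the 8, with Cnp, Drp2, Gldn and others) and 10 tested repair genes (Ngfr with Jun, Gap43, Ncam1, L1cam, Gfap, Gdnf, Artn, Bdnf and Atf3), the mean log2 level of the myelin genes minus that of the repair genes was -0.17, 0.25 and -0.11 in wild-type libraries 1 to 3. It was -0.59, -0.29, -0.039 and -0.44 in Tnc-/- 1 to 4. The groups overlapped, because Tnc-/- library 3 lay above wild-type libraries 1 and 3. The means were -0.010 ± 0.23 (SD, n = 3) and -0.34 ± 0.23 (SD, n = 4), a difference of -0.33. The mean of the myelin genes differed by -0.50 and that of the repair genes by -0.17. Over the genes above 1 CPM in every library the difference was -0.14. No test is given, since the genes were chosen with results of these data known. Among the myelin genes were Pou3f1, of the stage before myelination, and Dhh, with 0, 24 and 0 counts in wild-type libraries 1 to 3. For the 5 myelin genes of the set against Ngfr alone the difference was -0.070, from 2.07 ± 0.20 in wild type to 2.00 ± 0.064 in Tnc-/-. Over the wider genes it was -0.20 without wild-type library 2 and -0.17 without libraries 2 and 3.

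**Figure D4:**
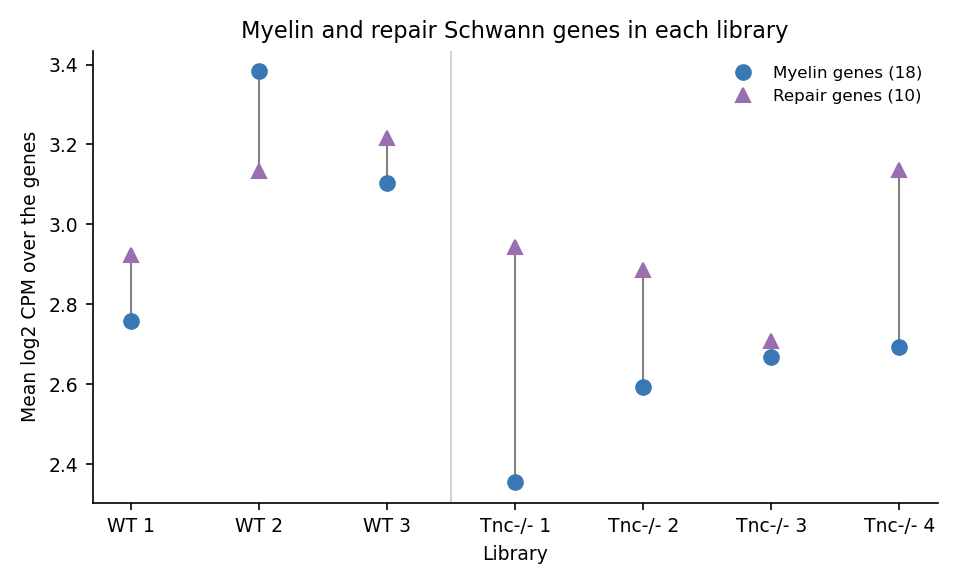
Mean log2 CPM of 18 myelin genes (circles) and 10 repair Schwann genes (triangles) in each library, joined by a line. Wild-type library 2 is the 1 library with the myelin mean above the repair mean (by 0.25), and the libraries of the 2 genotypes overlap in the gap.

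Of the wider myelin list of 15 genes, 13 were tested, 4 fell in Tnc-/- and 0 rose, against 18.7% of all tested genes called lower and 10.3% higher. The median log2 fold change of the list was -1.08. Pllp and Gjb1 were too low to test. The 4 were Gldn, Fa2h, Ugt8a and Pou3f1, and in all 4 the Tnc-/- libraries lay below wild type, as they did in 17.4% of all tested genes. Gldn encodes gliomedin, which gathers sodium channels at the nodes between myelin segments. It stood at 9.71, 8.17 and 9.72 CPM in wild type and 3.92, 4.57, 3.64 and 4.97 CPM in Tnc-/- (log2 fold change -1.11, SE 0.32; edgeR, adjusted p = 0.0316). Wild-type library 1 was as high as library 3, and without libraries 2 and 3 the value was -1.19 (adjusted p = 0.0464). The call was kept in 2 of 7 fits that each left out 1 library, without wild-type library 1 or 2, and adjusted p (edgeR) in the other 5 reached 0.101, at values from -1.19 to -1.04.

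Fa2h and Ugt8a encode enzymes that make the galactolipids of myelin, and both were high in wild-type libraries 2 and 3 alone. Fa2h was at 1.93, 32.2 and 18.4 CPM in wild type and 0.84 to 1.73 CPM in Tnc-/-, and Ugt8a at 1.72, 11.6 and 8.69 CPM and 0.785 to 1.34 CPM. Their log2 fold changes were -3.79 and -2.72 (edgeR, adjusted p = 0.0104 and 0.0156), and -0.62 and -0.64 without libraries 2 and 3 (adjusted p = 0.514 and 0.504). Pou3f1, a transcription factor gene of the stage before myelination, was at 4.03, 6.05 and 5.47 CPM in wild type and 1.34 to 2.30 CPM in Tnc-/- (log2 fold change -1.64, SE 0.44; edgeR, adjusted p = 0.0242). Without libraries 2 and 3 it was at -1.28 (adjusted p = 0.102).

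Abundant genes of that list did not pass the test. Cnp, which encodes an enzyme of the myelin membrane, was at 42.8 ± 19.1 CPM in wild type and 65.1 ± 9.85 CPM in Tnc-/- (log2 fold change 0.61; edgeR, adjusted p = 0.12). Without wild-type library 1 Cnp was at 1.13 and called higher (adjusted p = 7.77e-05), without libraries 2 and 3 it was at 0.0065 (adjusted p = 0.986), and with the receptor covariate it turned to -0.24. Drp2, whose protein binds periaxin, was at 10.6 ± 0.96 and 10.2 ± 1.12 CPM (-0.053, adjusted p = 0.887).

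The Schwann lineage list had 8 of 9 genes tested, with 4 lower in Tnc-/- (18.7% of all tested genes were), 0 higher (10.3%) and a median of -0.80. The 4 were Cdh19, Scn7a, Gfra3 and Gpr37l1. Scn7a, a sodium channel gene of non-myelinating Schwann cells, was at 22.2, 19.9 and 19.8 CPM in wild type and 10.02, 16.0, 10.4 and 12.5 CPM in Tnc-/- (log2 fold change -0.75, SE 0.22; edgeR, adjusted p = 0.0333). The value was -0.87 without wild-type libraries 2 and 3 (adjusted p = 0.0757), and with 1 library left out at a time the call was kept in 2 of 7 fits (adjusted p up to 0.102), without wild-type library 1 or Tnc-/- library 2. Gpr37l1, which encodes a glial receptor, was at 4.78, 7.24 and 5.10 CPM and 0.724 to 1.94 CPM (-2.03, SE 0.48; adjusted p = 0.0161), and at -1.77 without those libraries (adjusted p = 0.0548). Cdh19 (-1.79, adjusted p = 0.0332) and Gfra3 (-3.04, adjusted p = 0.0112) came to -0.78 and -0.95 without them (edgeR, adjusted p = 0.325 and 0.284). Erbb3, the neuregulin receptor gene of Schwann cells, was at 10.1, 18.9 and 21.6 CPM and 6.14 to 11.3 CPM (-0.85, adjusted p = 0.0806). Its value was -0.13 without wild-type libraries 2 and 3 (edgeR, adjusted p = 0.839) and turned to 0.11 with the receptor covariate. Art3, also expressed in muscle, was at 75.5 ± 17.9 and 80.8 ± 10.8 CPM (0.098, adjusted p = 0.718).

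Of 12 repair genes beside Ngfr, 9 were tested, 2 fell (Gap43 and Ncam1) and 0 rose, with a median of 0.089. That is near the 18.7% of all tested genes called lower. Sox2 and Shh had no count in any library. Gap43, which encodes a protein of growth cones and repair cells, was at 4.45, 12.9 and 15.2 CPM in wild type and 1.62 to 3.50 CPM in Tnc-/- (log2 fold change -2.17; edgeR, adjusted p = 0.0146), and at -0.89 without wild-type libraries 2 and 3 (adjusted p = 0.229). Ncam1, an adhesion gene also expressed by denervated muscle fibres, was at 39.1, 85.4 and 73.6 CPM and 30.8 to 40.5 CPM (-0.98, adjusted p = 0.0208), and at -0.23 without those libraries (adjusted p = 0.492). Jun, whose factor drives the repair state and which most cells express, was at 72.1 ± 9.49 and 82.0 ± 9.57 CPM (0.18, adjusted p = 0.366). Atf3, an injury-induced factor gene, was at 22.0 ± 2.54 and 23.9 ± 3.17 CPM (0.12, adjusted p = 0.63). Gfap, picked after its values were seen, was at 5.47, 1.26 and 3.28 CPM and 7.24 to 11.1 CPM with no overlap (1.44, adjusted p = 0.0611). The Gfap value was 2.09 without wild-type library 1 (edgeR, adjusted p = 7.67e-04), 0.73 without libraries 2 and 3 (adjusted p = 0.189) and 0.26 with the receptor covariate.

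Among 9 genes of axonal ligands, neurotrophins and their receptors, 8 were tested, 3 were lower in Tnc-/- (18.7% of all tested genes were), 0 were higher (10.3%), and the median was -0.68. These 3 span the longest stretches of any gene listed here. The count files hold another identifier with the symbol Nrg1, which GENCODE M21 lacks, and its counts were not used for the values below. Nrg1, the axonal signal that sets myelin thickness, was at 4.03, 138 and 93.9 CPM in wild type and 1.52 to 4.22 CPM in Tnc-/- (-5.05; edgeR, adjusted p = 0.00977), and at -0.77 without wild-type libraries 2 and 3 (adjusted p = 0.389). Ntrk2, the BDNF receptor gene, went from -1.22 (adjusted p = 0.0156) to -0.30 (adjusted p = 0.362). Ntrk3, the NT-3 receptor gene, turned direction, from -2.37 (adjusted p = 0.0468) to 1.32 (adjusted p = 0.0464), and with the receptor covariate to 2.53 (adjusted p = 0.00721). Sort1, a co-receptor gene of Ngfr, was at 65.5 ± 4.74 and 86.0 ± 10.3 CPM with no overlap (0.39, adjusted p = 0.0555). With wild-type libraries 2 and 3 left out, the genes called lower were 1 of the wider myelin list, 0 of the lineage list, 0 of the repair list and 0 of the axon list, in a fit that called 4.45% of all genes in either direction. With single libraries left out, the calls of Fa2h, Gfra3 and Nrg1 held in 7 of 7 fits, that of Gap43 in 5, those of Ugt8a, Gpr37l1 and Ntrk2 in 4, those of Pou3f1 and Ncam1 in 2, and those of Cdh19 and Ntrk3 in 1, without wild-type library 1. With the receptor covariate the direction also turned for Fa2h (0.53), Ugt8a (0.13), Nrg1 (0.70), Ncam1 (0.063) and Ntrk2 (0.095). Gfra3, Gap43, Gpr37l1, Pou3f1 and Cdh19 kept their direction in that fit.

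The source of the 8 genes was checked against markers of other cells. Of 7 oligodendrocyte markers, Mobp, Opalin, Olig2 and Ermn had 0 to 4 counts in any library, while Cldn11 had 16 to 112 and Aspa 80 to 177, and Mog was high in wild-type libraries 2 and 3. The list summed to 8.32, 47.1 and 29.8 CPM in wild type and 6.28 to 11.9 CPM in Tnc-/-, with Mog at 11, 417 and 279 counts in wild-type libraries 1 to 3 and 3 to 8 in Tnc-/-. The 5 melanocyte markers, of another cell that uses Sox10, summed to 2.25, 26.9 and 22.0 CPM and 1.90 to 3.45 CPM. The 9 neuron markers summed to 27.3, 104 and 71.3 CPM and 21.8 to 26.9 CPM, with no count for Nefl. In all 3 lists wild-type libraries 2 and 3 were the high ones, as they were for Ncmap, Fa2h and Ugt8a. Schwann cell markers outside the set were present too, with Drp2 at 9.08 CPM or more in every library, while S100b had 1 to 7 counts.

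Endothelial markers (6 tested, 1 higher and 2 lower in Tnc-/-) summed to 544 to 644 and 529 to 600 CPM, T cell markers (5 tested, 1 lower) to 18.4 to 38.6 and 19.1 to 26.6 CPM, and fibroblast markers (6 tested, 1 lower) to 20717 to 32154 and 21486 to 37646 CPM. Skeletal muscle markers (6 tested, 1 higher) summed to 20429 to 26870 CPM in wild type and to 28508 to 42412 CPM in Tnc-/-, with no overlap. These counts of called genes compare with 10.3% of all tested genes called higher and 18.7% lower. The part of these cells in the values of the 8 genes was not tested.

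Genes alike in pattern were sought as the 5 with the highest Pearson correlation, over 7 libraries and among 17783 genes, with the mean standardised level of Mbp, Pmp22, Prx, Mag and Ncmap. They were Tomm5 (r = 0.994), Gm13033 (0.986), Ap3s1-ps1 (0.973), Rpl22l1 (0.972) and Pfdn4 (0.972). Tomm5 was at 41.0, 47.6 and 27.3 CPM in wild type and 36.1 to 42.2 CPM in Tnc-/-. The points share their libraries, no p is given, and the genes were picked as the highest of all those compared. Mbp was higher and Ncmap lower in Tnc-/-, so the mean of the 5 need not follow either gene. That mean ran from -0.32 to 0.22 in wild type and from -0.051 to 0.083 in Tnc-/-.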

How the data were processed

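RNA sequencing of 7 libraries, 1 per mouse, was analysed from raw read counts per gene as deposited by the authors, 1 file per library. Library preparation, per the labels, used poly(A) enrichment and a NEBNext Ultra kit. The submitters' processing notes name HISAT2 2.2.1, HTSeq 2.0.2 and the build GRCm39. The annotation is not given in the sources used here. Rows naming no gene, listed in the Tnc-/- files only (30.1 to 32.7% of their reads), were left out.

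The 56854 identifiers in all files were fitted with edgeR 4.0.16 (R 4.3.3): filterByExpr, TMM scaling, robust dispersions, quasi-likelihood F test on genotype, and Benjamini-Hochberg adjustment over 17791 genes. Levels are CPM on TMM-scaled library sizes, and list means use log2 levels with a prior count of 2. Standard errors were derived from the log2 fold change and F. Exon lengths and spans came from GENCODE M21 (GRCm38), which held 91.4% of identifiers; as its build differs from the authors', no gene coordinates are given beyond the RefSeq stretches. Genes named are the 8, and from each Schwann cell or axon list all called genes and the 3 most abundant, except where a gene is not reported here. The genes, lists and rules were chosen with earlier results of these data known. The fits were also run on counts simulated from a shared mean profile with known changes added. Those counts lack the departure of wild-type libraries 2 and 3, so they do not bear on it. Alternatives were DESeq2 1.42.0, limma voom 3.58.1, Bonferroni adjustment, other scalings and filters, a replicate block, a receptor covariate and leaving out libraries.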

Additional observations from a re-analysis of the deposited data

Results flagged for a closer look

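The 4 Tnc-/- libraries were examined in 21 values for a single distant library. Dixon's test at the 95% level picked out 1 of the 21, where chance alone picks about 1 in 20. This was the summed level of the 9 neuron markers, 21.8, 22.6, 22.3 and 26.9 CPM in Tnc-/- 1 to 4, in which the distance from library 4 to its neighbour made up 0.837 of the spread. None of the 8 Schwann cell and myelin genes was picked out. Egr2 came nearest, with 0.806 for library 2.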

How the results depend on the processing

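Of the 8 genes, 2 were called. The count was 0 with DESeq2 and Bonferroni adjustment, with edgeR and Bonferroni adjustment, with the receptor covariate and without wild-type libraries 2 and 3 (chosen after seeing the data). It was 1 with limma voom, with no filter and with the replicate block, and 0 to 2 when single libraries were left out. Mbp was higher in all 18 alternatives chosen with the design (0.27 to 1.13) and called in 14. Ncmap was called in 6 and turned to 0.48 with the receptor covariate. Genes near 0 changed sign. With library totals Prx was at -0.20, Mag at -0.19, Sox10 at -0.061 and Ngfr at -0.22. With upper-quartile scaling Prx was at -0.0014, Mag at -0.038 and Ngfr at -0.042, and with 10 counts in every library they were at -0.030, -0.049 and -0.058. DESeq2 put Mag at -0.022 and Ngfr at -0.023 under either adjustment, and its size factors put them at -0.021 and -0.022. The receptor covariate put Mag at -0.77 and Ngfr at -0.16, and leaving out wild-type libraries 2 and 3 put them at -0.59 and -0.12. With single libraries left out, values ran from -0.15 to 0.023 for Pmp22, -0.040 to 0.31 for Prx, -0.34 to 0.56 for Mag, -0.54 to 0.043 for Egr2 and -0.038 to 0.19 for Ngfr, and wild-type library 1 or 3 turned the sign (for Mag also Tnc-/- library 2). The cause was not tested. The difference in myelin minus repair level was -0.33, moved to -0.070 for the 5 myelin genes minus Ngfr, was -0.14 over genes above 1 CPM in every library, and lay between -0.43 and -0.20 when single libraries were left out. Genes called lower in the wider myelin, lineage, repair and axon lists numbered 4, 4, 2 and 3, and 0 to 7, 0 to 5, 0 to 3 and 0 to 4 over all alternatives. Genes called higher numbered 0 in each, and up to 2, 0, 1 and 1. Replicate numbers in the titles did not pair the samples (correlations of same-numbered deviations -0.029, 0.073 and -0.014); with the block Mbp kept its call and Ncmap lost it at -1.22 (edgeR, adjusted p = 0.187). Depth limits Mag, Sox10 and Ngfr, with counts of 21 to 118 per library, and in Tnc-/- also Ncmap, with 61 to 81.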
